A study of Bos grunniens with 6 samples.

Results

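The miR-23, miR-27 and miR-24 entries of the deposited small-RNA table were chosen by name alone. They comprised every cattle-named entry called miR-23a, miR-23b, miR-27a, miR-27b, miR-24 or miR-10174 on either arm, the last because its sequence is nearly that of miR-23b. This gave 10 entries of 2853, all of which passed the filter on low values and were tested. The libraries were made from wild-type yak (Bos grunniens) skin cells that had been isolated and cultured, 3 from dermal papilla cells and 3 from hair matrix cells. Dermal papilla cells form the mesenchymal core of the follicle's bulb. Hair matrix cells are the dividing epithelial cells around that core from which the hair shaft grows. Both were grown in DMEM/F12 with 10% FBS, 10 ng/mL IGF1 and 20 ng/mL EGF. The labels call the libraries biological replicates and name no animals or cultures, so the spread behind each p-value is that between these libraries and may be technical. The study set the miRNA profiles of these cell types against each other.

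In mammals miR-23, miR-27 and miR-24 are made from a cluster of hairpins on a shared transcript, and the genome holds a pair of such clusters. The a copy gives miR-23a, miR-27a and a miR-24 hairpin, and the b copy gives miR-23b, miR-27b and another miR-24 hairpin. The mature miR-24-3p of both copies is the same, so its reads cannot be assigned to a copy. A miRNA finds its targets mainly through its seed, bases 2 to 8. In mouse and human cells miR-27 is known to repress PPARG and adipocyte formation, the miR-23b cluster to repress SMAD proteins of TGF-beta signalling, and miR-24 to act in cell cycle control and in keratinocyte differentiation.

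The sequences are printed as the deposited table lists them, 5′ to 3′, with T for U and the seed in capitals. The prefix bta- stands for Bos taurus, cattle, and is left out of most names elsewhere. The first set shows why the copies can be told apart at all, and only near the 3′ end:
bta-miR-27a-3p: tTCACAGTggctaagttccg
bta-miR-27b: tTCACAGTggctaagttctgc
bta-miR-23a: aTCACATTgccagggatttcca
bta-miR-23b-3p: aTCACATTgccagggattaccac
bta-miR-10174-3p: aTCACATTgccagggattaccacg
The second set shows the opposite arms and miR-24:
bta-miR-27a-5p: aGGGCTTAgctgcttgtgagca
bta-miR-23b-5p: gGGTTCCTggcatgctgattt
bta-miR-10174-5p: tGGGTTCCtggcatgctgattt
bta-miR-24-3p: tGGCTCAGttcagcaggaacag
bta-miR-24: gTGCCTACtgagctgatatcagt
miR-27a-3p and miR-27b shared their first 18 bases and differed by the substitution C19T, counted from the 5′ end of miR-27a-3p. miR-23a and miR-23b-3p likewise shared 18 bases and differed by T19A, counted from the 5′ end of miR-23a. A read that ended before base 19 would match both copies, and the rule the authors used for such reads is not given in the sources used here. miR-10174-3p was miR-23b-3p with 1 base added at the 3′ end. miR-10174-5p was miR-23b-5p with 1 base added at the 5′ end, which moves the seed by that base. The 10 entries held 7 distinct seeds. The copies shared a seed for miR-27-3p and for miR-23-3p, and miR-10174-3p had the miR-23 seed too. No other cattle-named entry of the table had any of these seeds. The 7 predicted entries that did had at most 3 reads in a library.

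Values are RPM, the reads of an entry per 1000000 reads of its library. The totals were not read directly but derived from the step between values, with the scale of 1000000 assumed. They came to 23904796 to 24693655 reads, of which listed entries took 71.7% to 73.5%. The whole table served to check the labels. The 7 epithelial miRNAs looked up (the miR-200 family, miR-205 and miR-184) summed to 386 to 458 RPM in dermal papilla libraries, against 80101 to 82871 RPM in hair matrix libraries, and all 7 were higher in every hair matrix library. The 4 miRNAs looked up for mesenchyme (miR-143, miR-145, miR-199a-3p and miR-214) summed to 82674 to 85560 RPM in dermal papilla libraries, against 1125 to 1325 RPM in hair matrix libraries. All 4 were higher in every dermal papilla library. Both arms of endothelial miR-126 summed to 3.68 to 4.70 RPM in dermal papilla libraries and 2.57 to 4.01 RPM in hair matrix libraries. The 5 blood entries summed to 18.1 to 20.96 RPM in dermal papilla libraries and 8.14 to 11.6 RPM in hair matrix libraries, and the 4 muscle entries to 57.9 to 72.7 RPM in dermal papilla libraries and 24.6 to 26.3 RPM in hair matrix libraries. Of the 5 blood entries 3 were higher in every dermal papilla library, as were 3 of the 4 muscle entries. No entry of either list was higher in every hair matrix library. miR-451 made up most of the blood sum, at 16.5 to 18.8 RPM in dermal papilla and 7.05 to 10.5 RPM in hair matrix libraries. miR-1 made up most of the muscle sum, at 56.7 to 71.2 and 24.4 to 26.0 RPM. The blood miRNA miR-142-3p was at 0 in all dermal papilla libraries and at most 0.040 RPM in hair matrix libraries. The muscle miRNA miR-133b was at 0 in all hair matrix libraries and at most 0.33 RPM in dermal papilla libraries. In bulk samples fewer cells of a type and less RNA per cell cannot be told apart, and the part of other cells in the results below was not tested.

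Of the 10 entries, miR-27a-3p differed most. It was 8.13-fold higher in hair matrix cells, while its relative miR-27b, with the same seed, was about equally abundant in both cell types on the deposited scale. miR-23a, also from the a copy, was 1.56-fold higher in hair matrix cells. Counted as 1 sequence, miR-23b-3p with miR-10174-3p was higher in dermal papilla cells, by 1.22-fold. miR-24-3p was 1.35-fold higher in hair matrix cells. Of the 10 entries 3 were called, by which is meant an adjusted p under 0.05 and at least a 2-fold change in limma on log2(RPM + 1), against 45.1% of the 503 entries tested. miR-23b-5p was called higher in dermal papilla cells, where 25.2% of tested entries were called. miR-27a-3p and miR-10174-5p were called higher in hair matrix cells, where 19.9% were called. At any fold 7 of the 10 had an adjusted p under 0.05, against 82.7% of tested entries. Of these 7, 6 were higher in hair matrix cells, where 40.6% of tested entries were, and 1 was higher in dermal papilla cells, where 42.1% were. These counts hold for the deposited scale. The libraries did not overlap for 6 of the 10, against 84.1% of tested entries. The median size of the log2 change was 0.67 over the 10 and 0.89 over all tested entries, and the median log2 change was -0.53 over the 10 and -0.01 over all tested entries. By these counts the 10 were called no more often than the table as a whole. A positive log2 change means a higher level in dermal papilla cells.

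**Figure D1:**
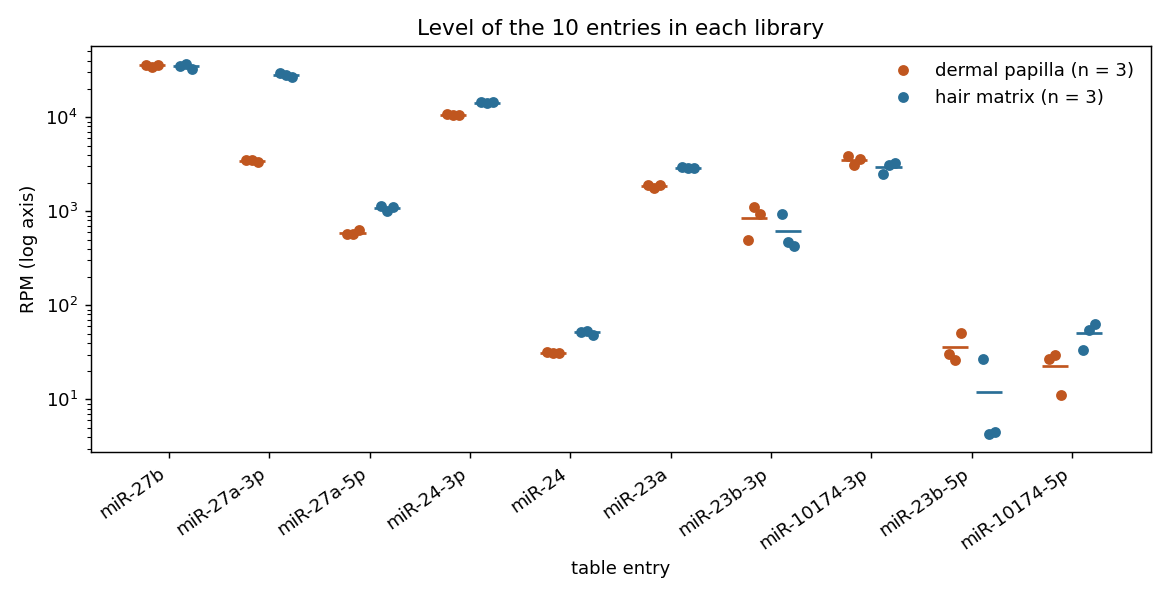
Level of each of the 10 entries in RPM on a log axis. Points are libraries (3 dermal papilla, 3 hair matrix) and lines are means. miR-27a-3p sits between 3312 and 3525 RPM in dermal papilla libraries and between 26712 and 29234 RPM in hair matrix libraries, whereas the points of miR-27b overlap.

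Dermal papilla libraries held 3506, 3525 and 3312 RPM of bta-miR-27a-3p, and hair matrix libraries held 29234, 28156 and 26712 RPM. All 3 hair matrix libraries were far above all 3 dermal papilla libraries, and the spread within each cell type was small. The means were 3448 ± 118 RPM in dermal papilla cells, against 28034 ± 1266 RPM in hair matrix cells (SD, n = 3 each), a log2 change of -3.02 ± 0.045 (SE, limma adjusted p = 1.6e-09). Ordered by mean RPM over the whole table, miR-27a-3p was entry 25 in dermal papilla cells and entry 5 in hair matrix cells.

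The level of bta-miR-27b was 35988, 34483 and 36096 RPM in dermal papilla libraries, against 35103, 36448 and 32839 RPM in hair matrix libraries. The libraries of the cell types overlapped. The log2 change was 0.03 with a 95% interval of -0.07 to 0.13 (limma adjusted p = 0.535). That interval is narrow enough to exclude a change of the size seen for miR-27a-3p, but it depends on the scaling. The median change of all tested entries was moved to -0.29 by median centring, which gives every library the same median, and miR-27b then stood at -0.24 with a limma adjusted p of 0.0027, under 2-fold but past the p threshold. With quantile normalization it was -0.25 at a limma adjusted p of 5.9e-09. That scaling assigns values by rank. By mean RPM miR-27b was entry 5 in dermal papilla cells and entry 4 in hair matrix cells. The p after quantile normalization therefore does not measure the spread of its RPM between libraries. Over all alternatives the adjusted p ranged from 5.9e-09 to 0.947.

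Within each library the ratio of miR-27a-3p to miR-27b does not depend on the library total. miR-27b exceeded miR-27a-3p by 10.3, 9.78 and 10.9 times in the dermal papilla libraries, and by 1.201, 1.29 and 1.23 times in the hair matrix libraries. The a copy thus made up 8.85% ± 0.436 of the summed miR-27-3p reads in dermal papilla cells, against 44.6% ± 0.949 in hair matrix cells (SD, n = 3 each). The log2 ratio differed by -3.05 without overlap. Its exact two-sided permutation p was 0.1, the smallest that 3 against 3 libraries allow, and 0.133 after adjustment over the 12 ratios compared. With the ratio entered as a row of a separate limma fit, an alternative chosen after the data were seen, the adjusted p was 4.1e-08. Summed over both copies, sequences with the miR-27 seed were at 39494, 38008 and 39408 RPM in dermal papilla libraries, against 64337, 64603 and 59551 RPM in hair matrix libraries. The sum was higher in every hair matrix library, by 1.61-fold, a log2 change of -0.69 ± 0.038 (SE, limma adjusted p = 1.6e-06).

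**Figure D2:**
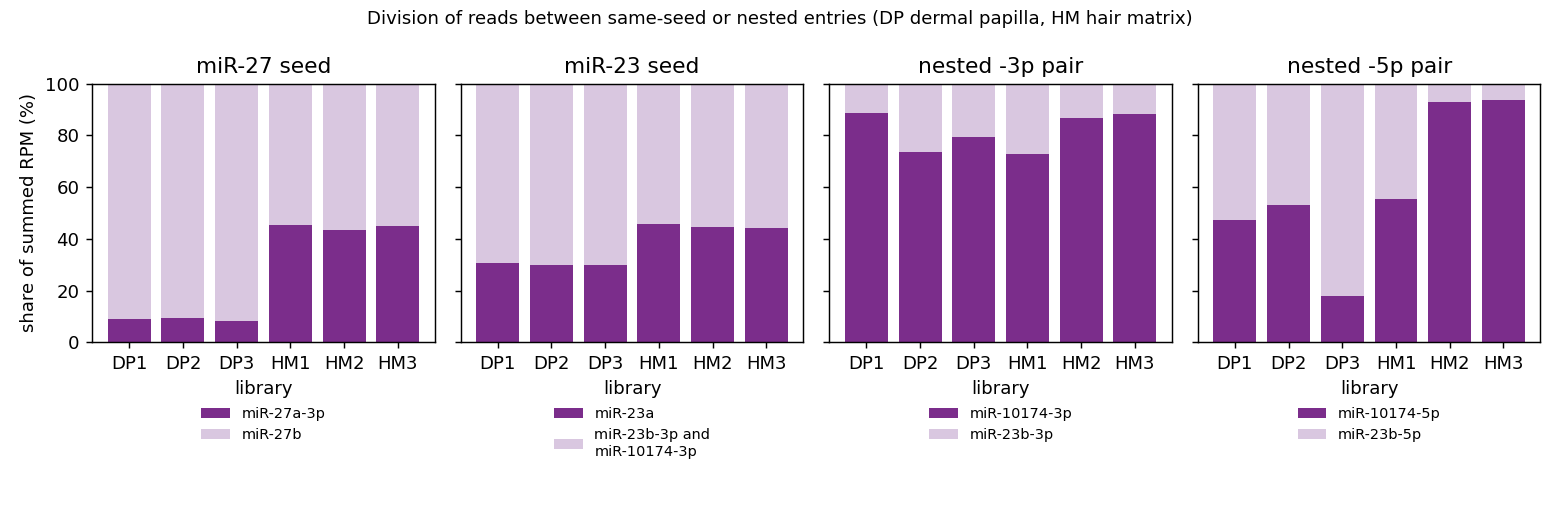
Share of summed RPM (%) taken by each entry in every library, for the miR-27 seed, the miR-23 seed and the nested -3p and -5p pairs. DP is dermal papilla and HM is hair matrix. The a copy takes 8.85% of the miR-27 seed in dermal papilla cells, against 44.6% in hair matrix cells, with little spread, whereas the nested -5p pair is split from 18.1% to 93.5% between libraries.

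The opposite arm of the same hairpin moved less. miR-27a-5p was at 579.5, 579 and 626 RPM in dermal papilla libraries, against 1135, 1017 and 1103 RPM in hair matrix libraries. Every hair matrix library was higher, by 1.82-fold in the means, and the log2 change of -0.87 ± 0.058 (SE, limma adjusted p = 5.6e-06) stayed under 2-fold. miR-27a-3p therefore exceeded miR-27a-5p by 6.05, 6.08 and 5.29 times in dermal papilla libraries, and by 25.8, 27.7 and 24.2 times in hair matrix libraries. The arms of this hairpin changed unequally, with a difference in log2 ratio of -2.16 (exact two-sided permutation p = 0.1, adjusted p of the limma fit with ratio rows 7.9e-07). Median centring took miR-27a-5p past 2-fold, at -1.14, so whether it was called depended on the scaling.

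miR-23a, from the same transcript as miR-27a in mammals, also moved less than miR-27a-3p. The level of bta-miR-23a was 1909, 1785 and 1912 RPM in dermal papilla libraries, against 2921, 2892 and 2909 RPM in hair matrix libraries. No library overlapped, and the log2 change was -0.64 ± 0.040 (SE, limma adjusted p = 3.7e-06), under 2-fold. The ratio of miR-27a-3p to miR-23a was 1.84, 1.97 and 1.73 in dermal papilla libraries and 10.0, 9.74 and 9.18 in hair matrix libraries. Its log2 difference of -2.38 had an exact two-sided permutation p of 0.1 and an adjusted p of 2.2e-07 in the limma fit with ratio rows. Thus the entries of the a copy all stood higher in hair matrix cells, miR-23a and miR-27a-5p by less than 2-fold and miR-27a-3p by 8.13-fold. This order of the cell types was the same under each scaling tried.

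**Figure D3:**
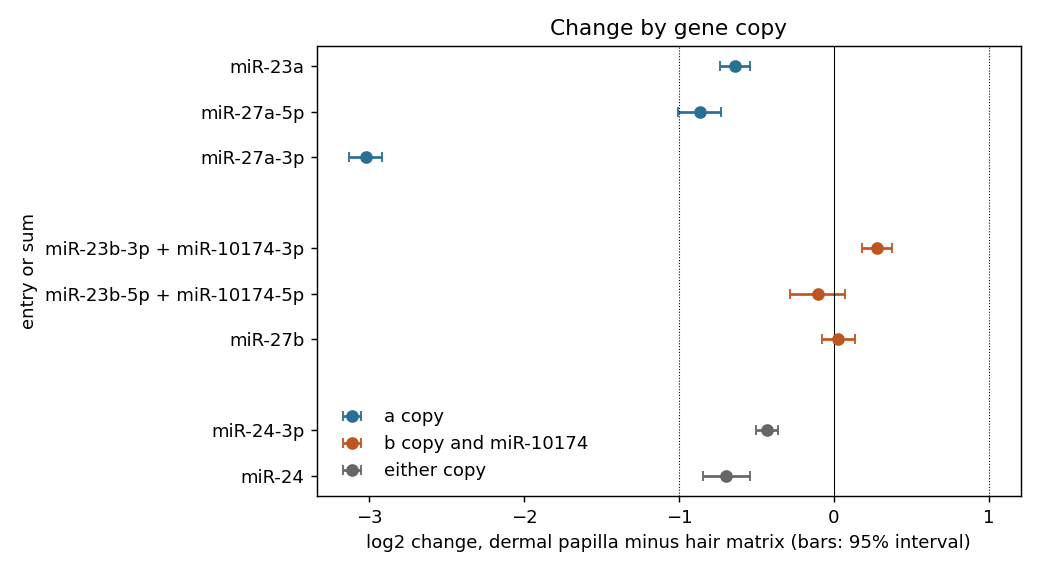
Log2 change, dermal papilla minus hair matrix, of entries and sums grouped by gene copy, with limma 95% intervals and dotted lines at 2-fold. miR-10174 is grouped with the b copy by its sequence, and its locus was not looked up. Entries of the a copy lie at -0.64, -0.87 and -3.02. Those of the b copy with miR-10174 lie at 0.28, -0.10 and 0.03. miR-24-3p at -0.43 and miR-24 at -0.69 are shown as from either copy. The copy of the miR-24 entry was not looked up, so the contrast of copies leaves it out.

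miR-23b-3p and miR-10174-3p have to be read together. Dermal papilla libraries held 491, 1116 and 929.9 RPM of miR-23b-3p, and hair matrix libraries held 938, 473 and 428 RPM. The values spread widely within each cell type and the groups overlapped (log2 change 0.47, limma adjusted p = 0.294). miR-10174-3p was at 3843, 3088 and 3566 RPM in dermal papilla libraries, against 2518, 3117 and 3250.3 RPM in hair matrix libraries. It was lowest where miR-23b-3p was highest within each cell type, and the groups overlapped here as well (log2 change 0.24, limma adjusted p = 0.0892). The sum of both entries was steadier, at 4333, 4204 and 4495 RPM in dermal papilla libraries, against 3456, 3590.2 and 3678 RPM in hair matrix libraries. Here no library overlapped, and the sum was higher in dermal papilla cells, its log2 change being 0.28 ± 0.041 (SE, limma adjusted p = 0.00038), under 2-fold. This change was lost with median centring, at 0.02.

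The ratio of miR-23a to the summed b-type entries, miR-23b-3p and miR-10174-3p, gave the comparison of copies for miR-23. miR-10174-3p, the larger part of that sum in every library, was counted with the b copy by its sequence. Its locus was not looked up, so the shares of the copies for miR-23 rest on this grouping. The b-type entries exceeded miR-23a by 2.27, 2.35 and 2.35 times in dermal papilla libraries, and by 1.18, 1.24 and 1.26 times in hair matrix libraries. The log2 difference was -0.92, with an exact two-sided permutation p of 0.1 and an adjusted p of 8.5e-06 in the limma fit with ratio rows. Set against miR-23b-3p alone the difference was -1.11, and the libraries then overlapped (exact two-sided permutation p = 0.2). Both miR-23 and miR-27 had a larger share of the a copy in hair matrix cells. For miR-23 this share was 30.1% ± 0.435 in dermal papilla cells, against 44.9% ± 0.849 in hair matrix cells (SD, n = 3 each). The summed level of the miR-23 seed was 6213 ± 211 RPM in dermal papilla cells, against 6482 ± 105 RPM in hair matrix cells, with overlapping libraries (log2 change -0.06, 95% interval -0.15 to 0.02, limma adjusted p = 0.149). This too depended on the scaling, since the sum was higher in hair matrix cells with median centring, at -0.33 (limma adjusted p = 5.2e-05), and after rescaling without the 5 most abundant entries, at -0.15 (limma adjusted p = 0.0029), but stood at 0.068 with quantile normalization (limma adjusted p = 0.0775). Over all its alternatives the adjusted p ranged from 5.2e-05 to 0.39. Among the entries counted with the b copy, the ratio of miR-27b to the summed miR-23b-type entries was 8.31, 8.20 and 8.03 in dermal papilla libraries. In hair matrix libraries it was 10.2, 10.2 and 8.93. This ratio differed by -0.25 on the log2 scale without overlap (exact two-sided permutation p = 0.1).

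The -5p entries of miR-23b and miR-10174 were also nested, at a lower level. miR-23b-5p was at 30.4, 26.2 and 50.5 RPM in dermal papilla libraries, against 27.01, 4.33 and 4.46 RPM in hair matrix libraries. The first hair matrix library lay among the dermal papilla libraries, so the groups overlapped despite a call in limma (log2 change 1.92 ± 0.65, SE, adjusted p = 0.0272). Without that library the change was 2.71. The call was lost in edgeR, a test on the recovered reads, after quantile normalization and without dermal papilla replicate 1 or 3 or hair matrix replicate 2 or 3. miR-10174-5p, with 1 more base at the 5′ end, was at 27.1, 29.6 and 11.1 RPM in dermal papilla libraries, against 33.5, 55.2 and 64.1 RPM in hair matrix libraries. It was called higher in hair matrix cells (log2 change -1.20 ± 0.39, SE, limma adjusted p = 0.0246). That call was lost without dermal papilla replicate 3, at -0.77, and without hair matrix replicate 2 or 3.

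The opposite calls of this pair did not persist in its sum. miR-23b-5p and miR-10174-5p together were at 57.5, 55.8 and 61.7 RPM in dermal papilla libraries, against 60.5, 59.5 and 68.5 RPM in hair matrix libraries. The sums overlapped, with a log2 change of -0.10 and a 95% interval of -0.28 to 0.08 (limma adjusted p = 0.24). The longer entry took 47.2%, 53.1% and 18.1% of this sum in dermal papilla libraries, against 55.4%, 92.7% and 93.5% in hair matrix libraries. For the -3p pair the longer entry took 88.7%, 73.5% and 79.3% in dermal papilla libraries, against 72.9%, 86.8% and 88.4% in hair matrix libraries. In the -3p pair the shares of the groups overlapped, and in the -5p pair they did not, although the first hair matrix library stood nearer to the dermal papilla libraries than to the other hair matrix libraries.

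Unsteady splits were also seen outside miR-23b. The table held 4 pairs of nested entries, in which the shorter lies wholly within the longer, with a mean of at least 10 RPM for each entry. Another of them was miR-339a with miR-339b, whose longer entry took 84.2% to 99.8% of the sum, and the last joined a pair of predicted entries, from 3.81% to 97.1%. Within a cell type the largest sum of a pair was at most 1.15 times the smallest. The shorter entry differed between libraries of a cell type by 1.93 to 43.3 times. The cause of these splits was not tested.

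The arms of miR-23b could be compared through these sums if miR-10174 is read as miR-23b. The -3p sum exceeded the -5p sum by 75.3, 75.3 and 72.9 times in dermal papilla libraries, and by 57.1, 60.3 and 53.7 times in hair matrix libraries. The difference of 0.39 on the log2 scale was without overlap (exact two-sided permutation p = 0.1, adjusted p of the limma fit with ratio rows 0.0013). It was opposite in sign to that of the arms of miR-27a and much smaller. The entry miR-10174-3p set against miR-10174-5p gave 1.44, and miR-23b-3p set against miR-23b-5p gave -1.44 with overlapping libraries.

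miR-24-3p gave no separate reading of the copies, since its mature sequence is the same in both. bta-miR-24-3p, the abundant arm, was at 10824, 10479 and 10578 RPM in dermal papilla libraries, against 14607, 14013 and 14363 RPM in hair matrix libraries. Every hair matrix library was higher, with a log2 change of -0.43 ± 0.031 (SE, limma adjusted p = 7.8e-06), under 2-fold. The entry miR-24, which has no arm in its name and another sequence, was taken as the opposite arm. It was at 31.8, 31.3 and 31.2 RPM in dermal papilla libraries, against 52.7, 53.3 and 48.4 RPM in hair matrix libraries, also without overlap. Its log2 change was -0.69 ± 0.063 (SE, limma adjusted p = 3.1e-05). miR-24-3p exceeded it by 340.0, 334 and 339 times in dermal papilla libraries, and by 277, 263 and 296 times in hair matrix libraries. Reads of miR-24-3p can come from both hairpins, so this ratio need not compare the arms of 1 hairpin. The name of this entry does not say which miR-24 hairpin the low arm comes from. Its sequence was not compared with the hairpins, so its copy was left unassigned.

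The order of the levels differed between the cell types mainly in the place of miR-27a-3p. RPM are not divided by length. Reads amplified by PCR are not independent molecules, and differences in capture between sequences were not measured, so the order is one of reads. In dermal papilla cells miR-27b stood highest at 35522 ± 902 RPM, before miR-24-3p at 10627 ± 178 RPM. miR-10174-3p and miR-27a-3p came next with overlapping libraries, then miR-23a, then miR-23b-3p and miR-27a-5p, which overlapped as well. Of the 3 lowest entries, miR-23b-5p overlapped both miR-24 and miR-10174-5p, whereas miR-24 lay above miR-10174-5p in every library. In hair matrix cells miR-27b at 34797 ± 1823 RPM was followed by miR-27a-3p, and then by miR-24-3p at 14328 ± 299 RPM. miR-10174-3p and miR-23a overlapped there at 2962 ± 390.1 and 2907 ± 14.8 RPM. They were followed by miR-27a-5p and miR-23b-3p, and then by miR-24 and miR-10174-5p, which overlapped, with miR-23b-5p lowest. Together the 10 entries held 7.78% ± 0.233 of listed reads in dermal papilla cells, against 11.7% ± 0.292 in hair matrix cells (SD, n = 3 each).

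**Figure D4:**
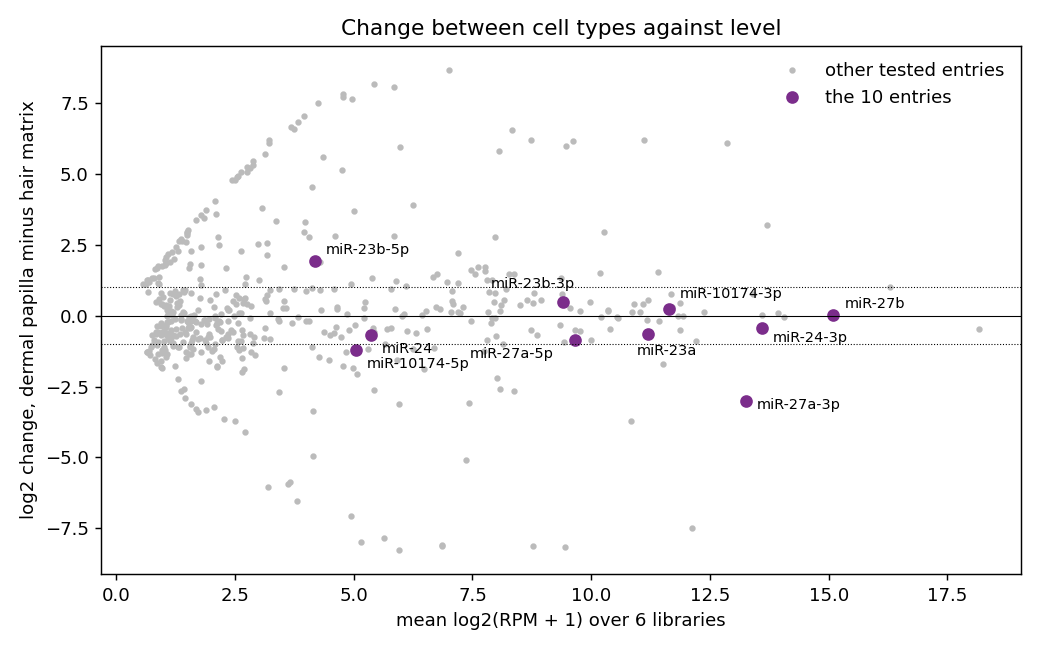
Log2 change, dermal papilla minus hair matrix, against mean log2(RPM + 1) over the 6 libraries for the 503 tested entries, with the 10 entries in purple and dotted lines at 2-fold. miR-27a-3p lies at -3.02 among the most abundant entries, and most of the 10 lie within 2-fold.

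miR-128 was looked at because its seed is that of miR-27 moved by 1 base. Bases 2 to 9 of miR-27b were bases 1 to 8 of miR-128:
miR-128: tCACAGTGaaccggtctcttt
miR-128 was at 504, 499 and 505 RPM in dermal papilla libraries, against 6539.9, 6731 and 6842 RPM in hair matrix libraries. It was higher in all hair matrix libraries, by 13.3-fold, a log2 change of -3.73 ± 0.035 (SE, limma adjusted p = 3.9e-10). Its change was in the direction of that of miR-27a-3p, as it was for 40.6% of tested entries at a limma adjusted p under 0.05. miR-27b, with the same seed as miR-27a-3p, had a log2 change of 0.03 on the deposited scale.

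For the abundant entries, the miRNAs most alike in pattern were found among the 129 others with cattle names and a mean of at least 100 RPM. Likeness was the root mean square difference of log2(RPM + 1) over the 6 libraries after each entry's mean was subtracted. Closest to miR-27a-3p was miR-222, at a difference of 0.058, which averaged 57.5 RPM in dermal papilla cells, against 501 RPM in hair matrix cells. miR-146b and miR-140 followed at 0.136 and 0.207. Closest to miR-23a were miR-192, miR-6119-5p and miR-191, at 0.067, 0.072 and 0.084. Closest to miR-24-3p were miR-191, miR-21-5p and miR-30e-5p, at 0.033, 0.040 and 0.071, so miR-191 was named for both. miR-27b was most like miR-30a-5p, let-7g and miR-125a, at 0.052, 0.056 and 0.061, which also had similar levels in both cell types. These likenesses describe 6 libraries in 2 groups and carry no test.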

How the data were processed

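Per the labels' protocols, a TruSeq kit turned 1 µg of RNA per sample into small RNA libraries. Trimmomatic, DESeq 1.20.0 and HISAT2 2.2.1.0 appear in the submitters' processing notes, with no role stated. Which genome build and miRNA set were used, and how reads with several matches were counted, is not given in the sources used here. Named TPM by the authors, the deposited values were read as RPM, with the scale of 1000000 assumed. All of them (100%) were whole multiples of 1 step per library within 0.001 read, so they were not divided by length. Whole reads were recovered from these steps. A floor of 3 reads lay at 0.121 to 0.125 RPM and covers counting error only. The deposited sequence column gave the printed sequences, and genome positions were not used.

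The 503 entries that reached 1 RPM in 3 or more of the 6 libraries were tested. log2(RPM + 1) was fitted with limma 3.58.1 (R 4.3.3) on cell type alone, with a trend in the variances. The p-values were adjusted over the 503 by Benjamini and Hochberg. The fit was also run on simulated counts drawn independently for each entry, which hold no division of reads between nested entries. No result here rests on that run. Fold values are ratios of mean RPM. Log2 changes of low entries are understated on this scale. Summed entries replaced their parts in a separate fit. Ratios used the exact permutation test of scipy 1.17.1. Replicates were compared by chi-square on whole reads, at 34.8 to 102 per degree of freedom, so none agreed within counting noise. Alternatives were other pseudocounts, filters and scalings, edgeR 4.0.16 on the recovered reads, the replicate number as a block, leaving out each library with the tested entries held fixed, and summed nested entries. Ratios as rows of the limma fit and calls without a fold minimum were added after the data were seen, as was the 10 RPM limit for nested pairs. The fit with ratio rows was a separate one, without a trend in the variances. It held the 503 tested entries and the 12 ratios, and p-values were adjusted over all of them. The entries and lists were chosen with earlier results of these data known. All 10 entries are named, with miR-128 and the 3 miRNAs most alike to each of miR-23a, miR-27a-3p, miR-27b and miR-24-3p. The mRNA libraries were not analysed here.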

Additional observations from a re-analysis of the deposited data

How the results depend on the processing

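The call of miR-27a-3p held in every alternative, and leaving out a library gave -3.06 to -2.99. miR-23b-5p was not called with edgeR at 1.58 or after quantile normalization at 1.58, and leaving out a library gave 1.51 to 2.71. miR-10174-5p was not called with a pseudocount of 10, at -0.92, and leaving out a library gave -1.47 to -0.77. miR-27b, called under none, turned to -0.24 with median centring, -0.25 with quantile normalization and -0.063 without the 5 most abundant entries, and lay at -0.010 to 0.065 without a library. Median centring turned miR-10174-3p to -0.031, and quantile normalization turned the miR-23 seed sum to 0.068, against -0.33 with median centring and -0.15 without the 5 most abundant entries. The miR-27 seed sum became a call after quantile normalization, which assigns values by rank, at -1.25. It was not called with median centring, at -0.96, or without the 5 most abundant entries, at -0.78. miR-27a-5p became a call after median centring at -1.14. Without a fold minimum, miR-23a (-0.64), miR-24 (-0.69), miR-24-3p (-0.43), miR-27a-5p (-0.87), the miR-27 seed sum (-0.69) and the miR-23b-3p with miR-10174-3p sum (0.28) would also be called. With ratios as rows of the limma fit, the log2 differences of 1.44, 0.39, -1.44, 0.26, -2.16, -1.11, -0.92 and -3.05 (arm ratios of miR-10174, the miR-23b sums, miR-23b alone, miR-24 and miR-27a, then paralog ratios of miR-23a to miR-23b-3p, miR-23a to its sum and miR-27a-3p to miR-27b) had adjusted p under the threshold, which the exact test cannot reach. Among these ratios, that of miR-24-3p to miR-24 need not compare the arms of 1 hairpin. Over the table, 127 entries were called higher in dermal papilla and 100 in hair matrix cells. The counts were 80 and 47 with a filter of 10 RPM, 77 and 40 with a pseudocount of 10, 212 and 204 without a fold minimum, 145 and 138 with edgeR, and 109 and 137 with median centring. The cause of these shifts was not tested. With the replicate number as a block 127 and 101 were called, no call among the 10 changed, and miR-27a-3p stayed at -3.02. Same-numbered libraries did not deviate together (correlations 0.14, 0.08 and -0.27 over 503 entries), so the numbers were not read as pairs.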
